A study of Mus musculus with 3 samples.

Results

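Costimulatory receptors and ligands of the tumour necrosis factor (TNF) family were examined in activated CD4+ T cells. The set held 10 genes of 20886 named on the array, chosen by symbol: the receptor genes Cd28, Icos, Tnfrsf4, Tnfrsf9, Tnfrsf18 and Cd27, and the ligand genes Cd40lg, Tnfsf8, Tnfsf11 and Tnfsf14. A probe belonged to a gene when the RefSeq accession printed for it in the scanner file mapped to that symbol, which gave 13 probes, with more than 1 probe for 3 genes (Icos, Tnfrsf9 and Cd27). All 10 genes had a probe, and 12 of the 13 probes were well above background on all 3 arrays. The exception was the probe for Cd40lg.

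The cells were CD4+ lymphocytes taken 2 days after stimulation from female C57BL/6 mice aged 8 weeks, labelled by genotype as Rbpj-/-, Dll1-/- or wild type (WT), with 1 array each. Activated Notch receptors reach their target genes by binding Rbpj on DNA, and Dll1, carried on cell surfaces, is among the ligands of those receptors. By its title the study concerns survival signals passed through Dll1. The labels give neither the stimulus, nor the cells that carried each deletion, nor the number of mice per sample. Each genotype has 1 array, so differences are descriptions of these arrays and carry no p-value.

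A T cell that recognises antigen needs a further signal from costimulatory receptors to divide and survive. CD28 and ICOS belong to the immunoglobulin superfamily, bind B7 family ligands on antigen-presenting cells and act largely through phosphoinositide 3-kinase. OX40, 4-1BB, GITR and CD27 belong to the TNF receptor family and recruit TRAF adaptors that activate NF-kB, whereas CD40 ligand, CD30 ligand, RANKL and LIGHT are TNF family ligands that an activated helper T cell shows to B cells, dendritic cells and other T cells.

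A level here is the log2 signal of a probe relative to the 75th percentile of its array, so that 75% of probes have levels below 0, and levels of different probes are not compared. The scanner software's own error of a spot made a difference between arrays uncertain by 0.20 to 0.21 log2 for the probes measured throughout. This error covers the spot and not the mouse. It was about 10% of the signal for each of these probes, so a difference beyond it does not separate genotypes. A gene was counted as apart when the arrays differed by at least 1.5-fold, with 2-fold as a stricter size.

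The clearest pattern lay in the Rbpj-/- cells, where the measured ligand and receptor genes of this set went opposite ways. All 3 ligand genes measured on both arrays were lower than in WT, with a median log2 difference of -0.52, and all 6 receptor genes were higher, with a median of 0.27. Among the receptors, Tnfrsf9 at 0.06 and Cd27 at 0.09 lay within the scanner error, and Tnfrsf18 at 0.21 was about its size. Over all 11578 genes measured on these arrays the median was -0.07, and 39.8% were above 0. Of the 9 members measured on both arrays only Tnfsf14 was at least 1.5-fold apart, lower in Rbpj-/- cells (Cd40lg, dim in Rbpj-/- cells, has only a bound), against 11.8% of all genes apart by that size, 6.91% lower and 4.86% higher. These directions are relative to the other genes of the array. With arrays scaled to their median, 4 of the 6 receptors were above WT, beside a median of all genes of -0.24. With arrays scaled to the E1A spike-in spots, the median of all genes itself was -0.66 and all 6 receptor differences were below 0. Such rescaling shifts every gene of a comparison by the same amount. It therefore cannot change that all 6 receptors lie above the median of all genes and all 3 ligands below it.

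**Figure D1:**
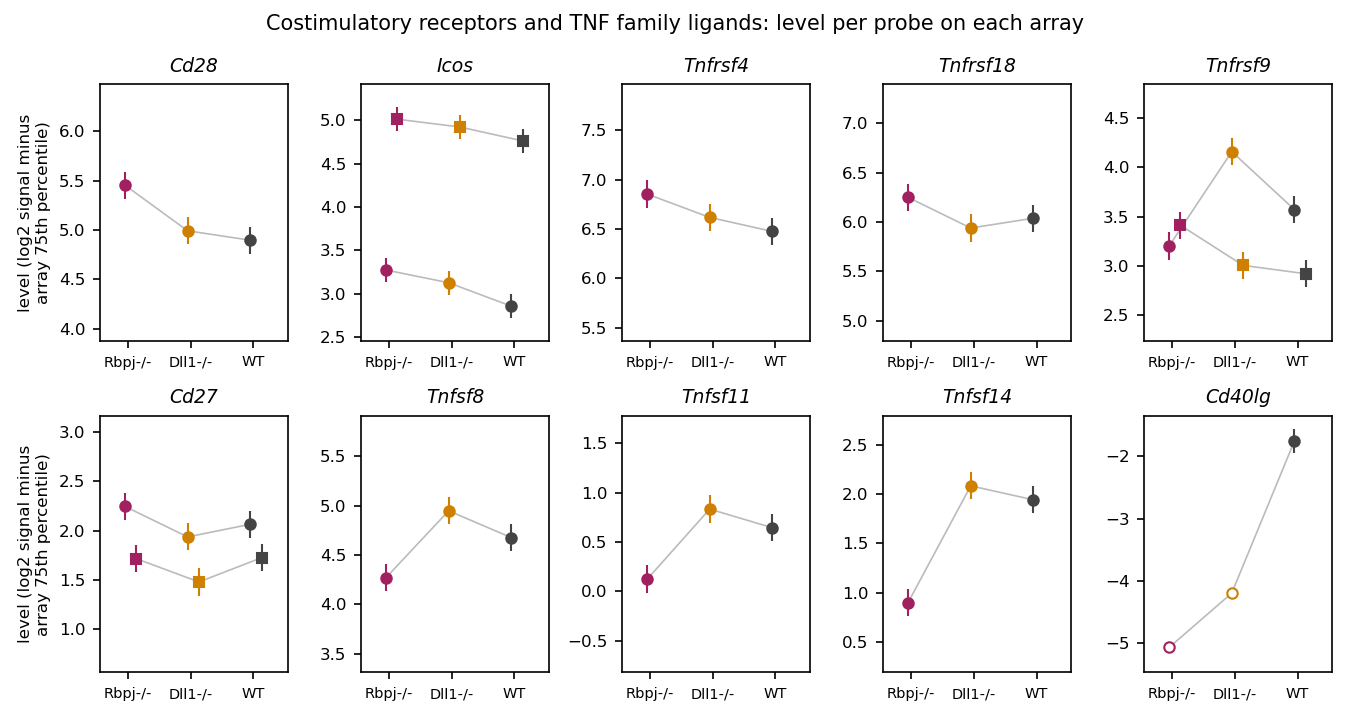
Level of each probe (log2 signal minus the array's 75th percentile) on the Rbpj-/-, Dll1-/- and WT arrays, 1 panel per gene, circles and squares for different probes of a gene, bars for the scanner's spot error and open symbols for spots not well above background. Tnfsf8, Tnfsf11 and Tnfsf14 are lowest in Rbpj-/- cells, Cd28 is highest there, and the 2 probes for Tnfrsf9 run in different directions.

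Among the ligands, Tnfsf14 encodes LIGHT, which binds HVEM and the lymphotoxin beta receptor. Its level was 0.90 in Rbpj-/- cells, 2.08 in Dll1-/- cells and 1.94 in WT cells. The Rbpj-/- array thus stood apart from the other two, which lay close together. The difference was -1.04 between Rbpj-/- and WT cells, or 2.06-fold lower, and 2.00% of all genes were at least as far below WT, with 2.15% at least 2-fold lower. Between Rbpj-/- and Dll1-/- cells it was -1.18, or 2.27-fold lower, with 1.94% of genes at least as far down and 2.61% at least 2-fold lower. The probe lies at the edge of the array, where its local background, but not the spot, was marked as an outlier on both knockout arrays, at a background of 21.0 in Rbpj-/- and 19.0 in Dll1-/- cells against 23.0 in WT cells, beside median spot signals of 243, 537 and 566 in the same order. After normexp correction with quantile normalization the difference from WT was -0.75.

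Tnfsf11 encodes RANKL, the ligand of RANK on dendritic cells and osteoclast precursors. Its level was 0.12 in Rbpj-/- cells, 0.83 in Dll1-/- cells and 0.64 in WT cells. Tnfsf8 encodes CD30 ligand, and its level was 4.27 in Rbpj-/- cells, 4.95 in Dll1-/- cells and 4.68 in WT cells. Both genes kept the order seen for Tnfsf14, with the Rbpj-/- array lowest and the Dll1-/- array highest. The Dll1-/- array exceeded WT by less than the scanner error for Tnfsf14 (0.14) and Tnfsf11 (0.19), and by more for Tnfsf8 (0.27). For the first 2 genes the order of Dll1-/- and WT is therefore not resolved. Against WT the Rbpj-/- differences were -0.52 for Tnfsf11 and -0.41 for Tnfsf8, short of 1.5-fold. Against Dll1-/- cells they were -0.71 and -0.68, or 1.64-fold and 1.60-fold lower.

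Cd40lg encodes CD40 ligand, through which helper T cells license B cells and dendritic cells. Its spot was well above background in WT cells alone, with processed signals of 4.22 in Rbpj-/- cells, 8.49 in Dll1-/- cells and 52.6 in WT cells, and the lowest signals well above background were 15.8, 13.6 and 19.2 on those arrays. Set against those limits, Cd40lg was at least 2.64-fold lower in Rbpj-/- cells than in WT cells, and at least 3.38-fold lower in Dll1-/- cells than in WT cells. Both directions follow from the flag, which the spot passed in WT cells alone. Bounds of at least 2-fold lower were found for 180 and 174 of the 1040 and 1078 genes that were well above background on 1 array of these pairs and had no probe measured on both. The spot lies in row 47 of the array, and of 318 spots around it 12 (3.77%) were well above background in WT alone, against 2.19% over the array's side with that row and 0.25% over the other side. The part of array position in this value was not tested. No fold is given between the 2 knockouts, where both spots were dim.

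The sequences just before the transcription starts of the 3 measured ligand genes, and of Tnfrsf9, whose probes disagree, are shown because the Rbpj gene encodes a DNA-binding protein and both families signal to or through NF-kB. Each is 250 bases from RefSeq on GRCm38.p6, read 5′ to 3′ on the gene's strand, and capitals mark matches, on either strand, to the RBPJ core TGGGAA or to a loose NF-kB-like pattern (GGG, any 5 bases, CC). Tnfsf14 lies at chr17:57194182-57194431 (minus strand), Tnfsf11 at chr14:78308044-78308293 (minus strand) and Tnfsf8 at chr4:63861285-63861534 (minus strand). The Tnfrsf9 starts follow chr4:150919905-150920154 and chr4:150927749-150927998 (plus strand).
Tnfsf14: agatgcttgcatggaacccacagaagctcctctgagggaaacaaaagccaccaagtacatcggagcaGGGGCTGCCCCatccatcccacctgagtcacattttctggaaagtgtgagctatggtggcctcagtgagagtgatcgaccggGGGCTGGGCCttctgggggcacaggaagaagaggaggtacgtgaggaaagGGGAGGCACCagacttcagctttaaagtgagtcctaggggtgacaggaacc
Tnfsf11: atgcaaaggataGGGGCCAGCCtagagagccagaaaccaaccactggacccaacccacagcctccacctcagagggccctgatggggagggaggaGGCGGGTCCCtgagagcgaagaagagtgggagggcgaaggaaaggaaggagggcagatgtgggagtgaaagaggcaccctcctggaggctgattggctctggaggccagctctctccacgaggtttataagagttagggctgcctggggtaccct
Tnfsf8: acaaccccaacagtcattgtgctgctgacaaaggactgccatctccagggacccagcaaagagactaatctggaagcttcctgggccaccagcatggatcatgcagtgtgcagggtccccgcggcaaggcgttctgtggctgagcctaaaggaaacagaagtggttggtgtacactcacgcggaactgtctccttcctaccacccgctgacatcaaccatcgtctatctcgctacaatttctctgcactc
Tnfrsf9, upstream start: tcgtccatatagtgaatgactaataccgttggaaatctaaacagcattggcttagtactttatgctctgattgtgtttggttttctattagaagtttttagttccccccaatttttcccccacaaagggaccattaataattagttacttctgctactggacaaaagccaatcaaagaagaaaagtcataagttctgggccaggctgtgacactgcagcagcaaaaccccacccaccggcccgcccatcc
Tnfrsf9, downstream start: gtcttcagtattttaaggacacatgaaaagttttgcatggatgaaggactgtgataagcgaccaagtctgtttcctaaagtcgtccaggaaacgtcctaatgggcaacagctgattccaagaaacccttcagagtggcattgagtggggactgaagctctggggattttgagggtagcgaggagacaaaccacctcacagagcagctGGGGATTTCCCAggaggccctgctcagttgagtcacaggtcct

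The RBPJ core was in none of the windows of the 3 ligand genes and in 1 of 8 windows of the 7 members with an entry, the downstream start of Tnfrsf9, where it begins 37 bases before the start and overlaps an NF-kB-like match. It was in 21.6% of all 32851 windows of this length. The NF-kB-like pattern was in 4 of the 8 windows (those of Cd27, Tnfsf11, Tnfsf14 and the downstream Tnfrsf9 start) and in 45.8% of all. A match is a string of letters and not a measured binding site. Cd28, Icos and Cd40lg had no entry.

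Among the receptors, Cd28, the first costimulatory receptor a naive T cell uses, had the largest difference between Rbpj-/- and WT cells by gene means. Its level was 5.45 in Rbpj-/- cells, 4.99 in Dll1-/- cells and 4.90 in WT cells. The Rbpj-/- array was highest, at 0.56 or 1.47-fold above WT and just short of 1.5-fold, and 5.44% of all genes were at least as far above WT. Normexp with quantile normalization gave 0.80.

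Icos, which sustains helper T cells after activation, was measured by 2 probes. They read 3.27 and 5.01 in Rbpj-/- cells, 3.13 and 4.92 in Dll1-/- cells, and 2.86 and 4.76 in WT cells. Both probes gave the same order, and their mean was 0.33 above WT in Rbpj-/- cells and 0.22 above WT in Dll1-/- cells. Cd28 and Icos flank the inhibitory receptor gene Ctla4 on chromosome 1. Ctla4 had a level of 1.60 in Rbpj-/- cells, 0.79 in Dll1-/- cells and 0.71 in WT cells, 1.85-fold higher in Rbpj-/- than in WT cells.

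Tnfrsf4, which encodes OX40, and Tnfrsf18, which encodes GITR, are next to each other on chromosome 4. Tnfrsf4 had a level of 6.85 in Rbpj-/- cells, 6.62 in Dll1-/- cells and 6.48 in WT cells. Tnfrsf18 had a level of 6.25 in Rbpj-/- cells, 5.94 in Dll1-/- cells and 6.04 in WT cells. Both were highest in Rbpj-/- cells, by 0.38 and 0.21 over WT, and the second value is about the size of the scanner error.

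Cd27, a receptor of naive and memory T cells, barely separated the arrays. Its 2 probes read 2.25 and 1.72 in Rbpj-/- cells, 1.94 and 1.48 in Dll1-/- cells, and 2.07 and 1.73 in WT cells. The mean was 0.09 above WT in Rbpj-/- cells and 0.19 below WT in Dll1-/- cells, where both probes were lowest.

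Tnfrsf9 encodes 4-1BB, an activation-induced receptor, and its direction depends on the probe. Probe A_55_P2029061 read 3.20 in Rbpj-/- cells, 4.16 in Dll1-/- cells and 3.57 in WT cells. Probe A_55_P2082180 read 3.41 in Rbpj-/- cells, 3.01 in Dll1-/- cells and 2.92 in WT cells. The first was lower in Rbpj-/- cells than in WT cells by -0.37 and the second higher by 0.49, although the file gives both the same transcript accession. A gap of 0.86 or more between the probes of a gene occurred in 4.91% of 2809 genes with several probes in this comparison. Between Rbpj-/- and Dll1-/- cells the gap was 1.36, reached by 1.76% of 2903 such genes, with differences of -0.96 and 0.41. The gene's mean of 0.06 in Rbpj-/- cells against WT therefore averages opposite readings, and the count of 6 receptors above WT becomes 5 of 6 with the brighter probe alone.

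**Figure D2:**
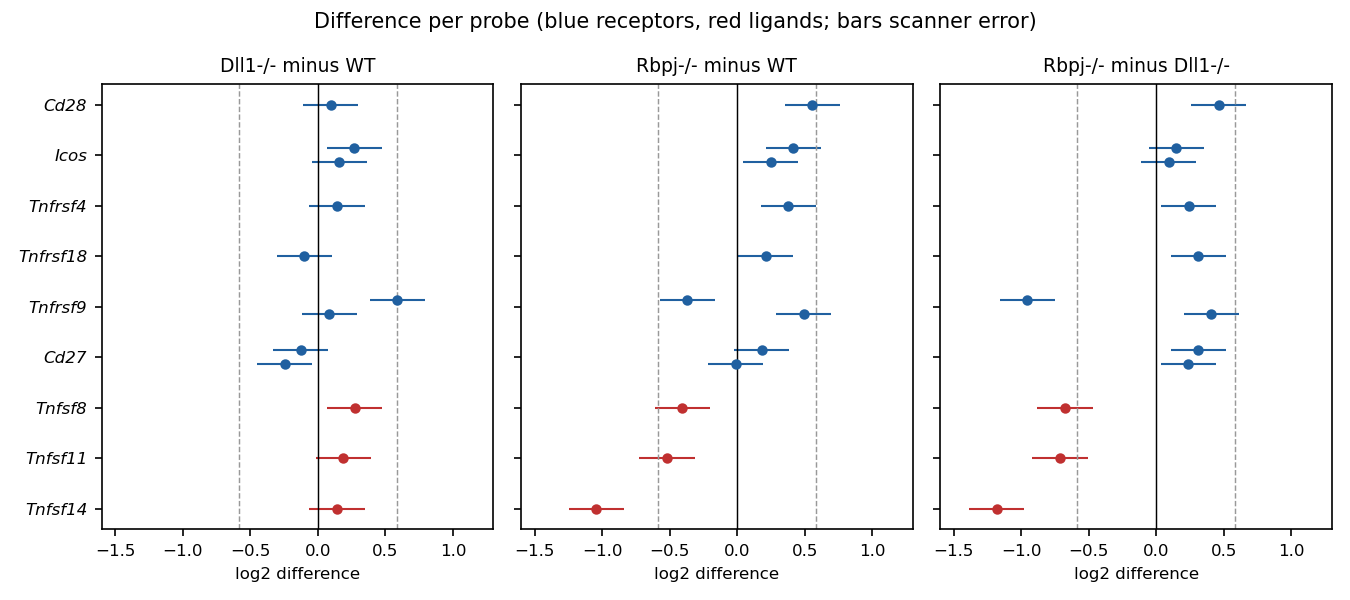
Log2 difference of each probe for the 9 members measured on all arrays, in Dll1-/- minus WT, Rbpj-/- minus WT and Rbpj-/- minus Dll1-/- cells, with receptors in blue, ligands in red, bars for the scanner error and dashed lines at 1.5-fold. The ligand points lie left of 0 in both Rbpj-/- panels and right of 0 in the Dll1-/- panel.

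The Dll1-/- cells differed from WT cells by less. No member measured on both arrays reached 1.5-fold, against 4.2% of 11811 genes (1.95% higher and 2.25% lower), and member differences ran from -0.19 for Cd27 to 0.34 for Tnfrsf9. Of the 9 members 7 were above WT, with a median of 0.14, while 44.3% of all genes were above WT and their median was -0.03. The 3 measured ligands were above WT by 0.14 for Tnfsf14, 0.19 for Tnfsf11 and 0.27 for Tnfsf8. Of these only Tnfsf8 exceeded the scanner error. Under spike-in scaling 4 of the 9 members were above WT and 5 below, with the median of all genes at -0.19. The Tnfrsf9 value again rests on the probe, at 0.59 for A_55_P2029061, which just passes 1.5-fold, and 0.08 for A_55_P2082180. Cd40lg, dim in Dll1-/- cells, is given above only as a bound, whose direction follows from the background flag.

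The comparison of Rbpj-/- with Dll1-/- cells does not use the WT array. Here 3 of the 9 members, the ligands Tnfsf14, Tnfsf11 and Tnfsf8, were at least 1.5-fold apart and lower in Rbpj-/- cells, where 11.6% of 11794 genes were apart by that size, 6.34% lower and 5.24% higher. With normexp and quantile normalization Tnfsf8, at -0.54, and Tnfsf11, at -0.52, fell short of 1.5-fold, Tnfsf14 was at -0.89, and the receptor Cd28 passed it at 0.71. Of the 6 receptors 5 were higher in Rbpj-/- cells, by 0.46 for Cd28, 0.31 for Tnfrsf18, 0.27 for Cd27, 0.24 for Tnfrsf4 and 0.12 for Icos. The receptor median was 0.26 and the ligand median -0.71, beside -0.03 for all genes, of which 44.9% were above 0. Spike-in scaling left 1 of 6 receptors above 0, with the median of all genes at -0.45. The 5 of 6 receptors above that median are fixed by the main setting, because this scaling shifts every gene alike. Both comparisons use the same Rbpj-/- array, so they are not separate observations of it.

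**Figure D3:**
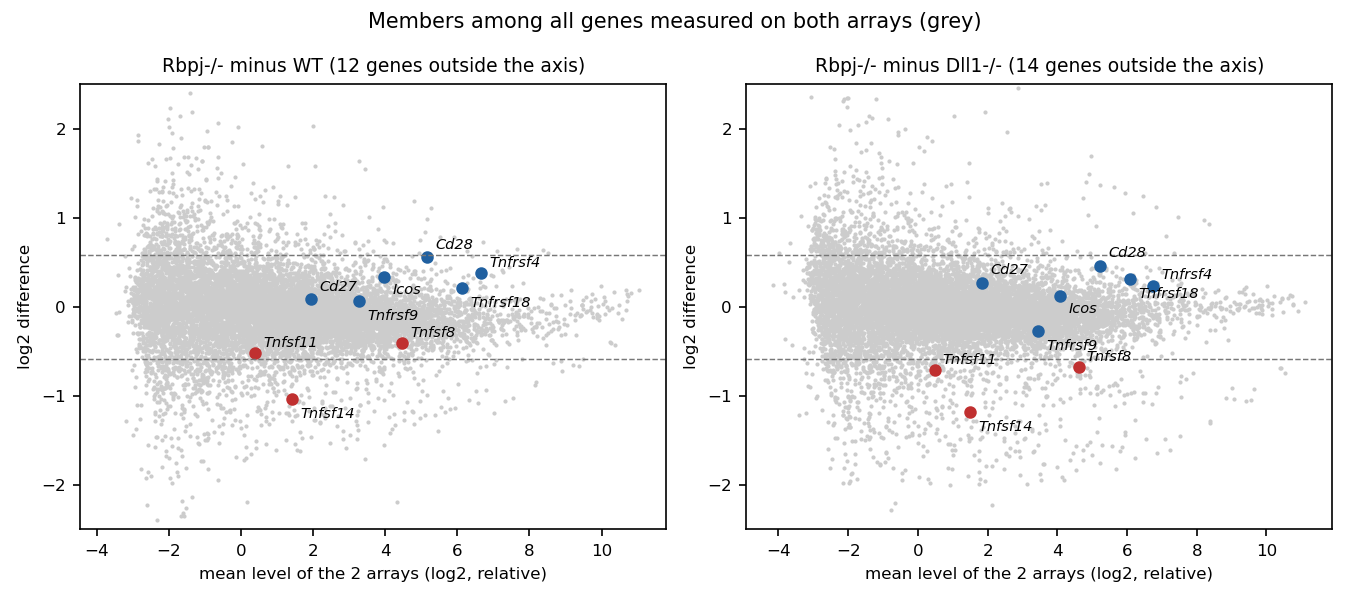
Log2 difference against mean level for all genes measured on both arrays (grey) with receptors in blue and ligands in red, for Rbpj-/- minus WT and Rbpj-/- minus Dll1-/- cells, and dashed lines at 1.5-fold. Tnfsf14 is at -1.04 and -1.18, where 2.00% and 1.94% of all genes, whatever their level, are at least as far down.

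Place on the array was measured directly. For the 12 probes measured on all arrays, the median difference of the spots within 10 rows and 10 columns lay between -0.13 and 0.04 in the 3 comparisons. With these local medians subtracted, an alternative chosen after seeing the data, Tnfsf14 was at -0.95, Tnfsf11 at -0.44, Tnfsf8 at -0.29 and Cd28 at 0.62 in Rbpj-/- cells against WT, the last of which passes 1.5-fold.

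The partners that bind the members were listed next. For this and the following groups the counts above and below WT hold for the 75th percentile scaling. Of 15 such genes 10 were measured on both the Rbpj-/- and WT arrays, with 5 above and 5 below WT, 1 at least 1.5-fold higher, 2 at least 1.5-fold lower and a median of -0.02. Cd70, the ligand of CD27 and the chromosome neighbour of Tnfsf14, had a level of -0.98 in Rbpj-/- cells, -0.39 in Dll1-/- cells and -0.30 in WT cells, 1.60-fold lower in Rbpj-/- than in WT cells. Cd160, a receptor for HVEM found on killer cells and some T cells, had a level of -3.10 in Rbpj-/- cells, -1.77 in Dll1-/- cells and -1.29 in WT cells, 3.49-fold lower in Rbpj-/- than in WT cells. Its Rbpj-/- value, from 1 probe, lies near -3.16, the lowest level well above background on that array, so the size of this fold is uncertain. Cd80, a ligand of CD28, averaged 2.04-fold above WT in Rbpj-/- cells, but its probe measured on both arrays was at -0.13. In Dll1-/- cells, Cd80 was likewise 1.69-fold above WT as a mean and at -0.07 by that probe, and no other partner measured on both arrays reached 1.5-fold. Tnfsf4, the ligand of OX40, passed the background flag in Dll1-/- cells alone and has only bounds. It was at least 1.53-fold higher there than in WT cells and at least 1.67-fold lower in Rbpj-/- than in Dll1-/- cells. Bounds of at least 1.5-fold in these directions were found for 180 of 1078 and 211 of 1125 genes read on only 1 array of these pairs. Tnfrsf14, which encodes the LIGHT receptor HVEM, was at 0.31 in Rbpj-/- cells and 0.42 in Dll1-/- cells against WT.

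Other ligands of the TNF family had a median difference of -0.10 between Rbpj-/- and WT cells, close to the -0.07 of all genes. Of 7 measured, 6 were below WT and 1 above, where 39.8% of all genes were above, and Ltb, Fasl and Tnfsf10 were at -0.09, -0.10 and -0.07. Lta, which encodes lymphotoxin alpha, had a level of 2.67 in Rbpj-/- cells, 3.53 in Dll1-/- cells and 3.17 in WT cells, 1.82-fold lower in Rbpj-/- than in Dll1-/- cells. Tnfsf12, the gene for TWEAK, averaged 1.85-fold lower in Rbpj-/- than in WT cells, but its probe measured on both arrays was at 0.09. In Dll1-/- cells 6 of the 7 were above WT, with a median of 0.13, and Lta was highest at 0.37. Of 12 other measured receptors of the family, 6 were above and 6 below WT in Rbpj-/- cells, with none at 1.5-fold in any comparison. Of all genes, 4.2%, 11.8% and 11.6% were that far apart in Dll1-/- against WT, Rbpj-/- against WT and Rbpj-/- against Dll1-/- cells. Tnfrsf19, dim in Dll1-/- and WT cells, has only bounds. It was at least 1.79-fold higher in Rbpj-/- than in WT cells and at least 2.21-fold higher than in Dll1-/- cells. Bounds of at least 1.5-fold higher were found for 283 of 1040 and 272 of 1125 genes read on only 1 array of these pairs. Tnfrsf22, a decoy receptor for TRAIL in the mouse, was at 0.56 in Rbpj-/- cells against WT as a mean and at 0.44 by the probe measured on both arrays. Tnfrsf13c, which encodes the BAFF receptor, was at -0.48 in Rbpj-/- cells against Dll1-/- cells.

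Among 11 measured CD28 family and other costimulatory or inhibitory receptors, 6 were above WT in Rbpj-/- cells and 2 at least 1.5-fold, with a median of 0.11. Of all genes, 39.8% were above WT and 4.86% at least 1.5-fold higher. The 2 receptors were Ctla4, given above, and Tigit, an inhibitory receptor for nectin family ligands, with levels of -0.73 in Rbpj-/- cells, -1.34 in Dll1-/- cells and -2.24 in WT cells. Tigit was 2.85-fold higher in Rbpj-/- than in WT cells and 1.87-fold higher in Dll1-/- than in WT cells. It was read by 1 probe, and the lowest level well above background on the WT array was -3.21. The size of these folds is therefore uncertain. Havcr2 of the same list, dim in Rbpj-/- cells, went the other way and was at least 1.77-fold lower there than in WT cells. Bounds of at least 1.5-fold lower were found for 281 of the 1040 genes read on only 1 array of this pair.

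Signalling genes downstream of the receptors mostly stayed within 1.5-fold. Of 22 measured TRAF and NF-kB genes 17 were below WT in Rbpj-/- cells, with a median of -0.08 close to that of all genes. Tnfaip3, which encodes the NF-kB inhibitor A20, was the only gene of this list at 1.5-fold, with a level of 3.46 in Rbpj-/- cells, 4.10 in Dll1-/- cells and 4.19 in WT cells, 1.65-fold lower in Rbpj-/- than in WT cells. In Dll1-/- cells 14 of 23 were above WT, none at 1.5-fold, with Traf2 furthest at 0.46 as a mean and at -0.10 by the probe measured on both arrays. Of 19 genes of CD28 and ICOS signalling, 9 were above and 10 below WT in Rbpj-/- cells. Pik3r1, the regulatory subunit of phosphoinositide 3-kinase, was 1.67-fold higher, and Prkcq, the kinase that links CD28 to NF-kB, was 1.51-fold lower. In Dll1-/- cells no gene of this group reached 1.5-fold, and Nfatc2, a transcription factor of calcium signalling, was furthest at 0.41.

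Markers of other cells moved with these results in Rbpj-/- cells, and their part in them was not tested. In bulk RNA, fewer cells of a type and less RNA per cell cannot be told apart. Over all genes, 39.8% were above WT in Rbpj-/- cells and 44.3% in Dll1-/- cells. All 4 regulatory T cell markers were above WT, among them Foxp3, the lineage factor, at 2.37-fold and Ikzf2, the Helios gene, at 3.01-fold, and the linear levels of the 4 summed to 48.5 in Rbpj-/- cells, 46.96 in Dll1-/- cells and 38.5 in WT cells. Most of that sum is Il2ra, which was at 0.06 in Rbpj-/- cells against WT and at -0.23 against Dll1-/- cells. Regulatory T cells are known for high CTLA-4, GITR, OX40 and ICOS. Both CD8 T cell markers were below WT, with sums of 0.80, 1.21 and 1.23 in the same order, and so were all 4 B cell markers measured on both arrays, with sums of 18.3, 25.8 and 25.9 over 6. The B cell marker Cd79a, dim in WT cells, went the other way and was at least 2.13-fold higher in Rbpj-/- than in WT cells. Bounds of at least 2-fold higher were found for 123 of the 1040 genes read on only 1 array of this pair. The 4 NK cell markers measured on both arrays were below WT as well, led by Nkg7 at -1.45, with sums of 329, 670 and 517 that come mostly from Klra1, while Ncr1 and Klrk1 were not well above background on any array. Klrb1c, dim in WT cells, was at least 1.67-fold higher in Rbpj-/- than in WT cells, where 283 of those 1040 genes had bounds of at least 1.5-fold higher. In Dll1-/- cells the 4 regulatory T cell markers were also above WT, none at 1.5-fold, and of 4 NK cell markers Tyrobp at 1.11 and Klra1 at 0.39 were above WT and Nkg7 at -0.16 and Eomes at -0.35 below. For macrophages 2 of 7 markers were measured on both arrays, with sums of 6.70, 5.57 and 6.01 over 3 genes, and for dendritic cells only Siglech of 6 was measured, at 612, 597 and 539. Siglech and Klra1 were read by 1 probe each, at high levels of 9.07 and 8.97 in WT cells. The other dendritic cell markers were not well above background on any array. What these 2 probes read was not tested, so these values are not amounts of dendritic or NK cells. Of the markers of the labelled cells, all 6 on the array were measured, Cd3e at 6.68, 6.80 and 6.75 and Cd4 by its brighter probe at 4.54, 4.26 and 4.30, and the list summed to 621, 551 and 582.

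The targeted genes were read as a check. The Rbpj probes read -0.09 and 1.16 in Rbpj-/- cells, 0.58 and 2.06 in Dll1-/- cells and 0.25 and 1.82 in WT cells, and the probe for Dll1 was dim throughout. The position of these probes relative to the deleted sequence is unknown, so that neither label was checked by them.

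Genes whose pair of differences from WT lay nearest to those of the ligands, among 10996 named genes, were Gabra3 and Cyb561 for Tnfsf14, Fhl2, Pak7 and Cwc22 for Tnfsf11, and Lzts3, Prb1 and Tagap for Tnfsf8. The nearest lay at Euclidean distances of 0.04, 0.01 and 0.01 log2 from Tnfsf14, Tnfsf11 and Tnfsf8. Over 3 arrays such likeness rests on 2 numbers per gene.

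**Figure D4:**
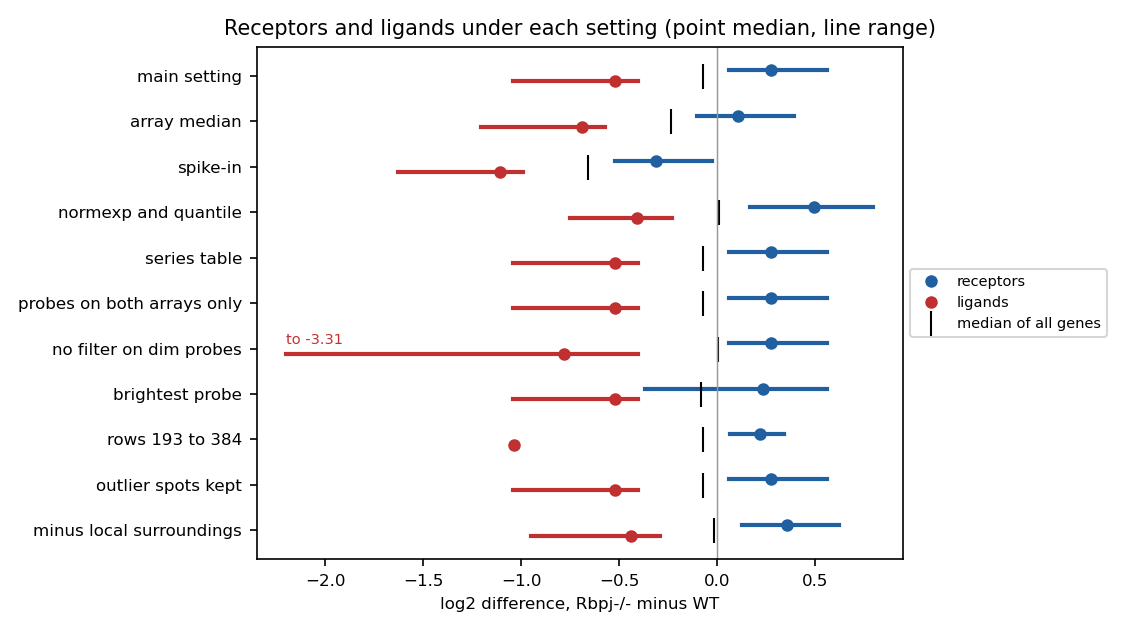
Median (point) and range (line) of the log2 difference in Rbpj-/- minus WT cells for the receptor genes (blue) and ligand genes (red) under the main setting and 10 alternatives (the ligand line without a filter on dim probes runs on to -3.31, for Cd40lg), with a black mark at the median of all genes. The ligand median lies below the median of all genes and the receptor median above it under each setting, while the side of 0 on which the receptors fall depends on the scaling. A setting that only rescales the arrays shifts every gene alike, so there the side of the median of all genes is fixed.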

How the data were processed

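Total RNA was profiled on 3 arrays of 1 Agilent mouse design, from 20 ng RNA per sample with Cy3 label, per the labels' protocols. The processed signals the authors deposited are linear intensity values, corrected for background and spatial trend by Feature Extraction (10.7 per the submitters' processing notes, 10.7.1.1 per the file headers). The same files hold each spot's error and its median foreground and background. All 3 arrays share 1 slide and 1 scan time, so neither separates the groups. A further table deposited by the authors is in log2 with its scaling unstated: 100% of its entries lay within 0.01 of log2 signal after adding a constant for each array, with no centring per gene, in the direction of the signal, with column medians of -3.28, -3.40 and -3.44 for Rbpj-/-, Dll1-/- and WT.

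Outlier spots were left out (139, 163 and 143), no spot was saturated, and log2 signals were scaled to each array's 75th percentile (7.14, 7.28 and 7.47). Well above background were 47.3%, 50.1% and 46.6% of 55678 probes. Accessions were matched to RefSeq (GRCm38.p6), which named 27507 probes. The array design is on mm9 per the file headers, so no gene coordinates are given except those of the RefSeq promoter windows. Gene levels average the probes that passed the background flag on at least 1 array, and differences need a probe measured on both. A dim spot gives a bound, against the higher of its own signal and the dimmest signal that passed the flag on its array. Some dim spots lay above that dimmest signal, so it is not a detection limit and the bounds are approximate. The direction of a bound follows from which array passed the flag. The number of arrays limits the precision. Spots of 1 probe printed repeatedly had a median SD of 0.07, 0.06 and 0.06 log2. The gene rule was tested on simulated data.

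All members were named. From each pathway list the genes at least 1.5-fold apart were named (at most 4), or the 1 furthest, and for members 1.5-fold apart the 3 nearest genes, of which 1 is not reported here. Tnfrsf14, Tnfrsf19, Tnfsf4, Havcr2, Nkg7, Tyrobp, Klra1, Klrb1c, Eomes, Cd79a, Il2ra, Ltb, Fasl, Tnfsf10, Ncr1, Klrk1 and Siglech were named after their values were seen. Members and lists were chosen with earlier results of these data known. Tools were Python 3.11.15, numpy 2.4.6, pandas 2.3.3 and limma 3.58.1 (normexp with offset 50 and quantile normalization).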

Additional observations from a re-analysis of the deposited data

How the results depend on the processing

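Of 255 member differences recomputed under 10 alternatives, 229 moved by less than the scanner error of 0.20 log2. Many of these could not move, so the count does not measure stability. The deposited log2 table, probes measured on both arrays only and no filter reuse the same values for the measured members. No member spot was an outlier, and the brightest probe alters only genes with more than 1 probe. No difference of at least 1.5-fold changed sign. Of the 26 that moved, 18 did so under spike-in scaling (8 E1A probes). That scaling changed the sign of 13 differences, scaling to the array median 3, and the brightest probe and normexp with quantile normalization 1 each. Members at least 1.5-fold apart in Dll1-/- against WT cells were 0, and 1 with the brightest probe (Tnfrsf9) or with no filter on dim probes (Cd40lg). Of all genes, 3.79% and 11.9% were that far apart under these 2 settings. In Rbpj-/- against WT cells such members numbered 1, and 2 under array-median scaling, normexp with quantile normalization, no filter, or local medians subtracted (chosen after seeing the data). Of all genes, 15.4%, 4.33%, 18.0% and 11.4% were that far apart under these settings, in that order. Under spike-in scaling such members numbered 3, where 61.1% of all genes were that far apart (11.8% in the main setting) and the member median of 0.09 became -0.50. In Rbpj-/- against Dll1-/- cells the count was 3, with 4 under spike-in scaling, no filter or the brightest probe, 2 with normexp (Tnfsf14 and Cd28), and 1 of 4 members on the array's far side alone, and the median of 0.12 became -0.30 under spike-in scaling. Of all genes, 31.2%, 19.0%, 11.5%, 5.08% and 10.8% were that far apart under these settings, in that order, against 11.6% in the main setting. Partner genes apart numbered 1 in Dll1-/- against WT cells, and 2 under spike-in scaling or no filter but 0 with normexp, probes measured on both arrays, the brightest probe, or the far side alone. They numbered 3 in Rbpj-/- against WT cells, and 5 under spike-in scaling or no filter but 1 with normexp. In Rbpj-/- against Dll1-/- cells they numbered 2, and 6 under spike-in scaling, 4 with no filter, 0 with normexp, and 1 on the far side alone or with local medians subtracted. Fewer genes are tested on the far side (the rows after the middle), and the cause of the other changes was not tested. Over all genes, 4.2% were at least 1.5-fold apart in Dll1-/- against WT cells and 0.94% with normexp, of which 46.4% and 55.9% were higher, against 35.5% under array-median and 14.6% under spike-in scaling. In Rbpj-/- against WT cells 41.3% of such genes were higher, 19.0% under array-median and 1.48% under spike-in scaling, and in Rbpj-/- against Dll1-/- cells 45.2%, 27.5% and 4.89%. No paired analysis was possible because each genotype has 1 array. Dim signals near background, as for Cd40lg, give bounds only.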
